A study of Drosophila melanogaster with 8 samples.

Results

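The genes described here are Drosophila genes whose symbol is a CG number. Their signal separated eye-antennal discs that expressed vestigial (vg) from discs that did not. A probe set was taken where its single gene symbol was CG and digits and its largest signal was at least 200. In addition, the 4 arrays with vg either all exceeded 1.3 times the highest of the 4 other arrays, or all lay below the lowest of the 4 others divided by 1.3. Of 5663 CG-numbered probe sets, 2092 reached a signal of 200, and 49 met the rule, each for a different gene. In 7 of them the vg arrays were higher and in 42 they were lower. CG6912, CG32444, CG34247 and CG31207 were left out by the rule. All 49 passed the filter on low signals used for the fit.

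The members were chosen from the signals of the vg arrays against the others, so their differences with vg are given as descriptions, without a test. The same rule over all 7688 probe sets with a signal of at least 200 picked 0.364% as higher and 1.51% as lower. Among the CG-numbered ones the shares were 0.335% and 2.01%, and among probe sets with 1 other symbol 0.385% and 1.28%. Probe sets of the CG-numbered genes left out by the rule count among those with 1 other symbol, so that set is not only named genes. In both sets more probe sets were lower than higher. Nothing particular to CG-numbered genes is read from these shares.

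Total RNA came from eye-antennal imaginal discs, the larval epithelia that give rise to the adult eye, antenna and head capsule, of wandering third-instar larvae, with 100 pairs of discs per sample and 2 samples per group. All groups carried the driver ey-GAL4, which uses regulatory DNA of eyeless to switch on UAS transgenes in the eye disc from an early stage. The lacZ group carried UAS-lacZ UAS-lacZ, the vg group UAS-vg UAS-lacZ, the simj group UAS-lacZ UAS-simj, and the vg_simj group UAS-vg UAS-simj. The copies of UAS-lacZ were 2, 1, 1 and 0 in that order and cannot be told apart from genotype. Each sample thus pools many larvae, its RNA was amplified from 100 ng, and the labels call the samples of a group biologic replicates and name no shared day or batch. The series asks how these transgenes, singly or together, alter the identity of the eye disc.

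As background, vg encodes a transcriptional cofactor that acts with the DNA-binding protein Scalloped and selects wing identity, while the product of simj belongs to NuRD, a complex that remodels chromatin. CG numbers were assigned to predicted genes when the fly genome was first annotated. A gene keeps its number as its name until someone names it after a mutant or a function, so such genes include enzymes and transporters recognised by sequence as well as genes with no known role. For some members a family is stated below from general knowledge. Where none is stated, a family may still be known. Sequences of the members were not used here.

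Values are linear MAS5 signals, in which 1 value summarises the probes of a probe set and each array is scaled to a common mean. They are compared between arrays for 1 probe set, not between probe sets. Log2 differences were computed on log2(signal + 2.8), which understates the change of dim genes, and are given ± SE. Median signals of the 8 arrays lay between 36.5 and 46.3, and signals near or below these cannot be told from background here. One vg probe set gave 29.4 and 28 in lacZ, 16.6 and 22.2 in simj, 234 and 259 in vg, and 401 and 432 in vg_simj. The simj probe set gave 479 and 727 in lacZ, 595 and 679 in vg, 1260 and 1063 in simj, and 1077 and 912 in vg_simj. Each transgene was therefore higher on every array labelled as carrying it. The retinal genes eya, so, dac, dan and Optix had signals between 481 and 3876 on all arrays.

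Of the 7 higher genes, CG15236, a gene with no family assigned here, was at background without vg. Its signals were 11.7 and 13.9 in lacZ and 10.2 and 1.5 in simj, all below the array medians, against 173 and 131 in vg and 207 and 199 in vg_simj. Since the signals without vg cannot be told from background, the size of the difference is not fixed by these arrays. On log2(signal + 2.8) it was 3.30 ± 0.57 for vg against lacZ and 4.78 ± 0.57 for vg_simj against simj, and with a pseudocount of 64 it was 1.49 and 1.94. In the reference annotation CG15236 overlaps CG34215 and CG9445, and which of these genes the probes detect was not tested.

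CG14852 reached the highest signals of its own range in the discs with both transgenes. It read 5.3 and 1.6 in lacZ, 6.2 and 1.6 in simj, 671 and 12.1 in vg, and 3383 and 1697 in vg_simj. The vg arrays thus differed widely, and vg replicate 2 stood below its array's median. On that array CG14852 met the rule at 12.1 against at most 6.2 without vg, signals that cannot be told from background. The log2 difference for vg against lacZ was 1.32 without vg replicate 1 and 6.82 without vg replicate 2. CG8087, a neighbour in gene order, had a like pattern. It read 14.2 and 6.0 in lacZ, 19.6 and 36.4 in simj, 1535 and 17.6 in vg, and 2562 and 904 in vg_simj. The other neighbour, CG31313, overlaps CG14852 in the annotation and did not share the pattern. CG31313 read 1559 and 450 in lacZ, 838 and 1146 in simj, 671 and 130 in vg, and 859 and 271 in vg_simj. Which of the overlapping genes the CG14852 probes detect was not tested. The summed signal of 12 salivary gland probe sets was 404 and 618 in lacZ, 3444 and 3047 in simj, 6160 and 1153 in vg, and 15675 and 2189 in vg_simj. In vg this sum followed ng1, ng2 and ng3, which gave 1368, 825 and 3109 in replicate 1 and 10.3, 2.9 and 15.9 in replicate 2. The glue genes Sgs1, Sgs3, Sgs4, Sgs5, Sgs7 and Sgs8 were instead higher in vg replicate 2, as with Sgs7 at 128 and 252. In simj ng1 gave 202 and 1002, where CG14852 stayed at 6.2 and 1.6. The part of salivary gland tissue in the CG14852 signal was not tested.

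The other 5 higher genes were above the array medians in lacZ discs, and 4 of them, all but CG5171, differed by 0.88 to 1.01 on the log2 scale in vg against lacZ. CG4646, which encodes a small conserved protein of the UPF0587 family, read 680 and 680 in lacZ, 591 and 628 in simj, 1332 and 1300 in vg, and 1309 and 1023 in vg_simj. Its log2 difference with vg was 0.95 ± 0.15 without simj and 0.92 ± 0.15 with it. CG6357, a cysteine peptidase of the cathepsin L type, read 1070 and 1195 in lacZ, 1258 and 1046 in simj, 1797 and 2710 in vg, and 2195 and 2309 in vg_simj, again with nearly equal differences of 0.96 ± 0.20 and 0.97 ± 0.20. CG11342, a methyltransferase of the Bin3 type, read 148 and 105 in lacZ, 103 and 107 in simj, 278 and 232 in vg, and 285 and 225 in vg_simj, with differences of 1.01 ± 0.24 and 1.25 ± 0.24. In these 3 genes the vg and vg_simj arrays overlapped.

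CG5171, a trehalose-6-phosphate phosphatase, the enzyme type that completes the synthesis of the blood sugar trehalose, varied most among the well-expressed higher genes. It read 1548 and 2275 in lacZ, 2567 and 1256 in simj, 3596 and 10479 in vg, and 3932 and 4793 in vg_simj. The log2 difference for vg against lacZ was 1.71 ± 0.50, and it was 2.48 without vg replicate 1 and 0.94 without vg replicate 2. One vg replicate stood far above the other, and the gap to the highest other array, 1.40, was the smallest among the higher genes. Its neighbour CG5177, another trehalose phosphatase gene, did not follow it, with 7781 and 6558 in lacZ, 6506 and 5223 in vg, 7939 and 9064 in simj, and 6048 and 5868 in vg_simj.

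CG31436 belongs to the ecdysteroid kinase-like family, whose insect members include enzymes that phosphorylate ecdysteroids. It read 222 and 188 in lacZ, 241 and 178 in simj, 391 and 368 in vg, and 523 and 529 in vg_simj. The gene next to it in the annotation, CG10550, belongs to the same family and is among the lower genes. Its signals were 1071 and 532 in lacZ, 536 and 492 in simj, 186 and 50.9 in vg, and 240 and 179 in vg_simj. These neighbouring paralogs therefore separated the same arrays in opposite directions. CG6908, a further member of the family elsewhere in the gene order, was also lower with vg, at 642 and 268 in lacZ, 982 and 995 in simj, 170 and 98.7 in vg, and 203 and 177 in vg_simj. The CG10550 probe set is of a type that can match several transcripts, and whether it also detects a relative was not tested.

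**Figure D1:**
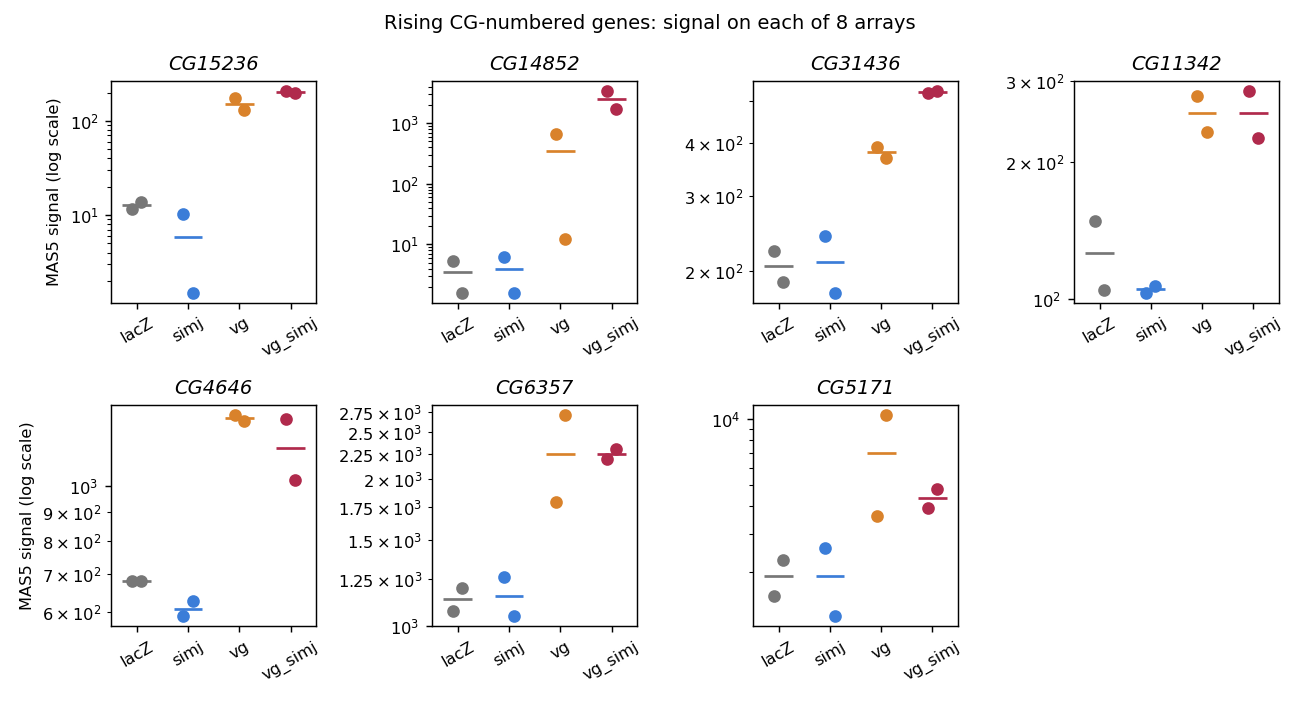
MAS5 signal (log scale, one range per panel) of the 7 CG-numbered genes that were higher with vg, by group; points are single arrays and bars are means of 2. In each panel all 4 arrays with vg lie above all 4 without it, with CG15236 at 131 to 207 against 1.5 to 13.9, while the vg replicates of CG14852 lie at 671 and 12.1.

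The 42 lower genes had log2 differences from -0.58 to -4.90 for vg against lacZ, with a median of -1.48, and from -0.49 to -5.86 for vg_simj against simj, with a median of -1.72. Over all 10205 probe sets fitted the medians were -0.0043 and 0.045. The gap between the array sets ran from 1.31 to 5.93, with 16 genes at 2 or above, 10 from 1.5 to 2 and 16 below 1.5. In 3 of the 42 all 4 vg arrays, and in 8 at least 1 of them, lay at or below the array's median, so the size of those differences rests on background signals. The 3 were CG4716, CG3348 and CG8157.

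CG14275 had the widest gap, 5.93. It encodes a protein of the Ly6 type, small extracellular proteins often anchored to the membrane by a lipid. Its signals were 852 and 920 in lacZ and 957 and 967 in simj, against 97.6 and 58.6 in vg and 144 and 49.3 in vg_simj. The log2 difference with vg was -3.50 ± 0.44 without simj and -3.47 ± 0.44 with it. The arrays without vg lay close together, and those with vg spread about as much within a group as between groups.

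Several of the lower genes encode enzymes. CG4408, a zinc carboxypeptidase, read 3475 and 4792 in lacZ, 2585 and 3089 in simj, 951 and 917 in vg, and 359 and 202 in vg_simj. It differed by -2.12 ± 0.27 with vg alone and by -3.38 ± 0.27 with vg beside simj. CG17928, a gene related to the fatty acid desaturases fused to cytochrome b5 and next to Cyt-b5-r in the annotation, read 255 and 241 in lacZ, 299 and 397 in simj, 34.2 and 51.7 in vg, and 83.3 and 61.2 in vg_simj. CG31145, a secretory-pathway protein kinase related to human FAM20C, read 286 and 280 in lacZ, 319 and 399 in simj, 79.7 and 99.9 in vg, and 112 and 104 in vg_simj. A second CG31145 probe set read at most 3.6 on any array and bears on nothing.

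Further enzymes had smaller gaps. CG8745, related to alanine-glyoxylate aminotransferases, read 193 and 212 in lacZ, 228 and 159 in simj, 77.7 and 61.4 in vg, and 71.1 and 43.9 in vg_simj. The lipase gene CG5162 differed by -1.31 ± 0.34 and -1.19 ± 0.34, and CG6426, a lysozyme of the destabilase type, by -1.01 ± 0.27 and -1.05 ± 0.27. CG4829, a gamma-glutamyl transferase of glutathione turnover, read 824 and 805 in lacZ, 848 and 862 in simj, 432 and 281 in vg, and 515 and 558 in vg_simj. Its level with vg beside simj was therefore between the vg level and the level without vg.

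Among membrane proteins, CG7497, a G protein-coupled receptor with no known ligand, read 201 and 203 in lacZ, 164 and 215 in simj, 67.5 and 113 in vg, and 114 and 103 in vg_simj. CG31103, a transporter of the major facilitator superfamily, differed by -1.35 ± 0.39 and -1.32 ± 0.39. CG13920 carries the synonym NACHO in the reference table, the name of an assembly chaperone of nicotinic acetylcholine receptors in mammals. It read 1021 and 910 in lacZ, 991 and 866 in simj, 456 and 411 in vg, and 475 and 439 in vg_simj. Its replicates were among the closest of the lower genes, and its differences, -1.15 ± 0.14 and -1.02 ± 0.14, were like each other. The ABC transporter gene CG31689 had the narrowest gap of all, 1.31, at 370 and 409 in lacZ, 378 and 415 in simj, 239 and 210 in vg, and 282 and 238 in vg_simj.

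Other lower genes with wide gaps have no family stated here. CG14629 read 604 and 1028 in lacZ, 558 and 806 in simj, 221 and 189 in vg, and 232 and 232 in vg_simj. CG30471 read 741 and 526 in lacZ, 530 and 391 in simj, 165 and 80.7 in vg, and 111 and 105 in vg_simj. CG5397 read 335 and 441 in lacZ, 395 and 629 in simj, 148 and 128 in vg, and 138 and 128 in vg_simj. The vg and vg_simj arrays overlapped in CG30471 and CG5397, and in CG14629 both vg_simj arrays lay just above both vg arrays.

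CG1092 and CG10337 were likewise well expressed without vg. CG1092 read 332 and 522 in lacZ, 281 and 580 in simj, 93.0 and 69.1 in vg, and 129 and 113 in vg_simj. CG10337 read 1184 and 1216 in lacZ, 1947 and 1469 in simj, 467 and 483 in vg, and 545 and 390 in vg_simj. CG10337 overlaps ref(2)P in the annotation, which read 1317 to 2040 on all arrays and did not separate them by vg under the rule. CG32237 read 216 and 118 in lacZ, 187 and 275 in simj, 50.9 and 19.9 in vg, and 47.6 and 38.6 in vg_simj, so part of its vg signals lie near background.

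CG4716 was measured by a pair of probe sets. The member gave 243 and 108 in lacZ, 93.5 and 221 in simj, 1.4 and 4.5 in vg, and 28.5 and 2.3 in vg_simj. The other, below a signal of 200 throughout, gave 169 and 64.3 in lacZ, 55.2 and 127 in simj, 3.3 and 5.6 in vg, and 4.1 and 7.3 in vg_simj. Both probe sets therefore separated the arrays the same way, on the same RNA. For CG1674 the second probe set overlapped between the sets, at 66.1 and 71.5 in lacZ and 69.7 in vg_simj replicate 2, and for CG31689 it read at most 19.7.

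Several further genes without a stated family had differences that rest on unequal arrays. CG14022 read 594 and 163 in lacZ, 526 and 622 in simj, 62.9 and 26.6 in vg, and 95.6 and 47.1 in vg_simj. CG3348, which overlaps Hmu, read 189 and 55.4 in lacZ, 327 and 121 in simj, 6.8 and 4.7 in vg, and 10.2 and 35.1 in vg_simj. In both, lacZ replicate 2 was the lowest array without vg and set the gap, at 1.71 and 1.58. CG4250 read 440 and 523 in lacZ, 670 and 1204 in simj, 195 and 325 in vg, and 234 and 224 in vg_simj, and here the simj arrays were the highest.

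Smaller but even differences were seen in CG32017 and CG5377. CG32017 read 333 and 298 in lacZ, 286 and 298 in simj, 196 and 193 in vg, and 176 and 191 in vg_simj. CG5377 read 459 and 394 in lacZ, 426 and 468 in simj, 301 and 265 in vg, and 278 and 296 in vg_simj. Replicates of these genes lay close together, and the log2 differences for vg against lacZ were -0.69 ± 0.17 and -0.59 ± 0.16. CG31777, CG31337 and CG13101 had larger differences beside simj, at -2.09, -1.79 and -1.53, than without it, at -1.37, -1.33 and -0.83. CG8501 and CG14298 went the other way, with -0.79 and -1.19 beside simj and -1.40 and -1.71 without it. Neither set of differences passed the interaction test given further on.

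**Figure D2:**
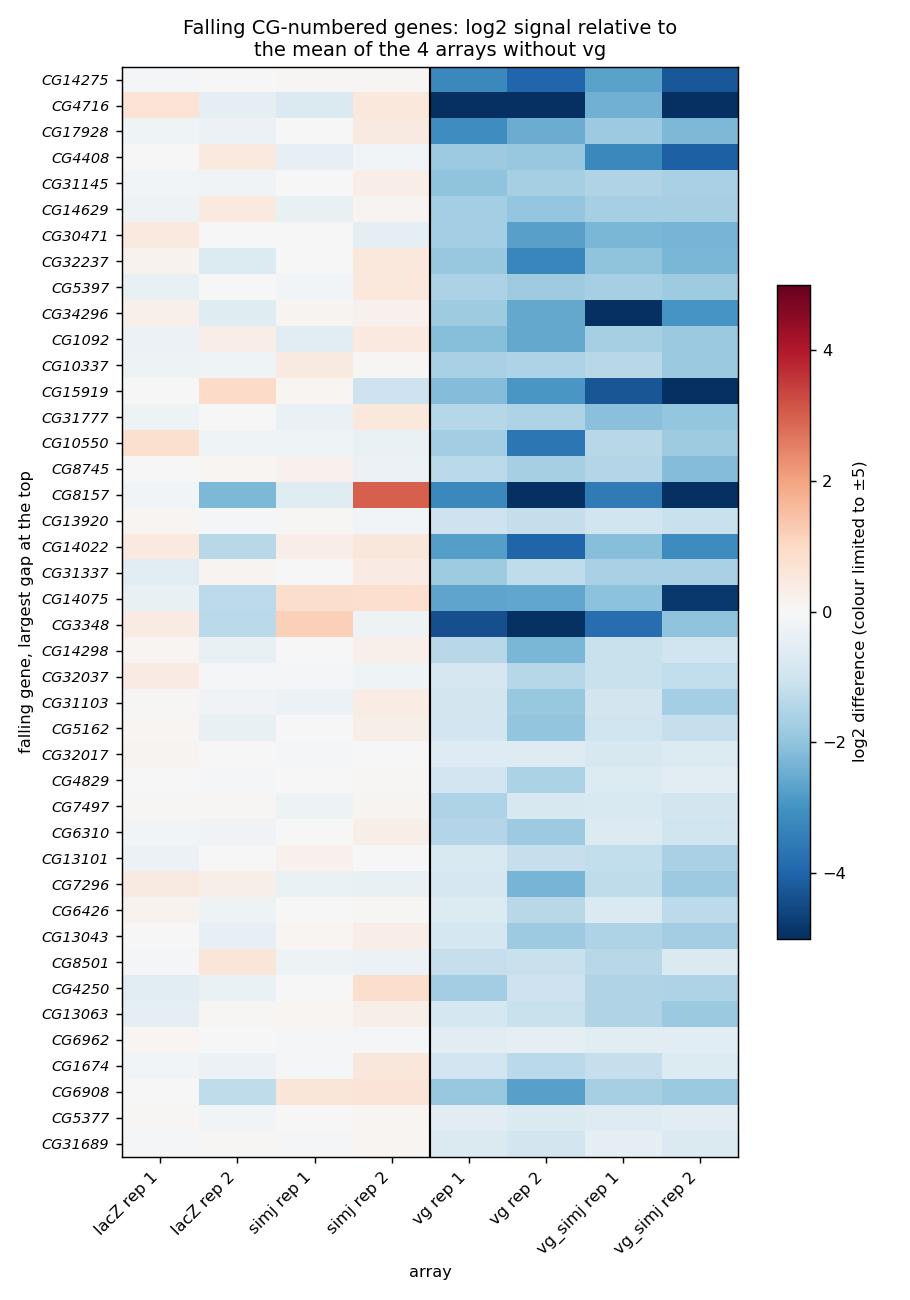
Log2 signal of the 42 lower genes (rows, widest gap at the top) on the 8 arrays (columns), relative to each gene's mean over the 4 arrays without vg; blue is lower. All 42 rows are lower in the 4 right-hand columns by the rule, and lacZ replicate 2 is paler or bluer than the other arrays without vg in CG8157, CG14022, CG14075, CG3348 and CG6908.

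How many genes met the rule depended on single arrays. Leaving an array out can only loosen the ratio part of the rule, so a higher count by itself was to be foreseen. Without lacZ replicate 2 the same rule picked 119 lower CG-numbered probe sets in place of 42, and without vg_simj replicate 1 it picked 64. Without lacZ replicate 1 the count was 54. For the higher genes the count went from 7 to 12 without lacZ replicate 2, to 13 without vg replicate 2 and to 11 without simj replicate 1. The 42 and the 7 are thus the genes that also pass on these arrays, not all CG-numbered genes that may differ with vg. Just outside the ratio of 1.3 lay CG33494, CG10764 and CG4259 on the lower side, at gaps of 1.298, 1.295 and 1.289, and CG9004, CG6013 and CG8891 on the higher side, at 1.25, 1.247 and 1.223. Just inside on the lower side were CG6908, CG5377 and CG31689, at 1.32, 1.31 and 1.31.

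The lower genes shared their array pattern with markers of other tissues. The ring gland is the endocrine organ that makes ecdysone and sits at the brain near the attached discs, and haemocytes are the blood cells of the larva. Of the 13 probe sets for ring gland genes 11 reached a signal of 200 and 9 met the rule on the lower side. Of 14 for haemocyte genes 12 reached it and 9 met the rule. Over all probe sets with a signal of at least 200 the share was 1.51%. The lists were chosen with earlier results of these data known. These counts are therefore descriptions, and the excess over that share is not a test. The summed ring gland signal was 27151 and 32274 in lacZ, 33893 and 40497 in simj, 9258 and 9435 in vg, and 6249 and 5194 in vg_simj. The summed haemocyte signal was 12135 and 11604 in lacZ, 13284 and 27572 in simj, 3870 and 2666 in vg, and 6329 and 4510 in vg_simj. No ring gland probe set and 1 haemocyte probe set, of Pxn, lay at or below the median on all arrays.

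In bulk samples fewer cells of a type and less RNA per cell cannot be told apart. Median log2 differences for vg against lacZ were -1.88 for the fitted ring gland probe sets, -1.83 for the haemocyte ones and -1.48 for the 42 lower genes. Lists for glia (8 probe sets, 0 meeting the rule), photoreceptors and neurons (17, 0 meeting it) and the retinal genes of the eye disc (11, 0 meeting it) did not show this pattern. The muscle and myoblast list had 4 probe sets, of which none met the rule, and its sum followed Mlc2, at 2993 and 801 in lacZ, 2003 and 2504 in simj, 800 and 183 in vg, and 775 and 646 in vg_simj. Its other members twi, htl and Him overlapped between arrays with and without vg, as with htl at 293 and 318 in lacZ and 320 and 355 in vg. The part that ring gland, blood cell or muscle RNA plays in the signal of the lower genes was not tested.

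Among the targets listed for Vestigial and Scalloped, 7 of 12 genes had a probe set with their symbol. Only the 2 probe sets of vg itself met the rule on the higher side. The transgene that defines these arrays is vg, so its own rise is not read as a target response. A nub probe set fell short of the ratio, although every array with vg was above every other array. It read 175 and 78.9 in lacZ, 185 and 210 in simj, 259 and 376 in vg, and 781 and 943 in vg_simj. The other nub probe sets lay at or below the median on all arrays. Probe sets of ct, salm, bs, kni and Dll overlapped between arrays with and without vg. Of the wing disc list, with 19 probe sets, the same 2 vg probe sets met the rule on the higher side. On the lower side 1 of the vvl probe sets met it. In the antennal list 1 probe set, of al, met it on the higher side, and in the fat body and trachea lists none did. In the list of disc damage and cell death genes Ilp8 and skl met it on the higher side. The scalloped gene itself was not analysed here.

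**Figure D3:**
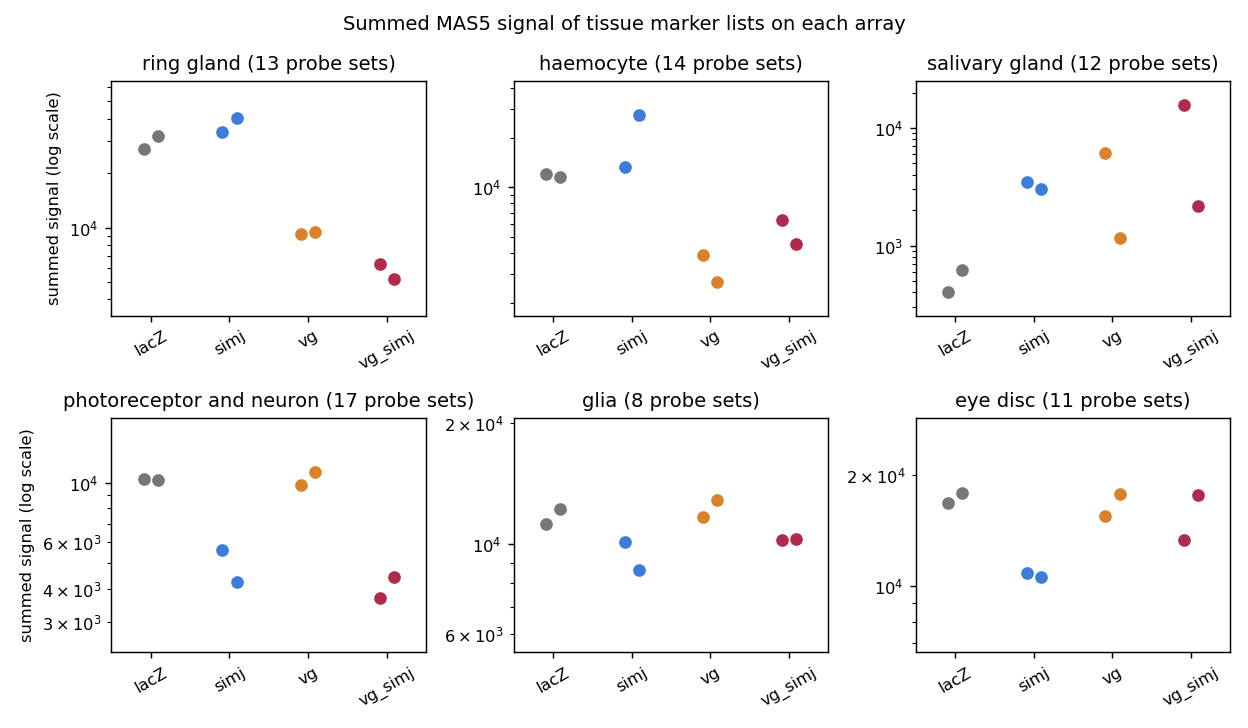
Summed MAS5 signal (log scale, one range per panel) of the probe sets of 6 tissue marker lists, 1 point per array. Ring gland sums are 27151 to 40497 without vg and 5194 to 9435 with it, haemocyte sums 11604 to 27572 and 2666 to 6329, while photoreceptor and neuron sums are lower in both groups with simj.

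Position in the genome gave a few ties to named genes. Adjacent or overlapping protein-coding genes of the 42 lower genes had 31 probe sets with a signal of at least 200. Those that met the rule on the lower side and are not members were Hml beside CG8745, path beside CG32037, and sad, which overlaps CG6962. CG13043 and CG13063 are neighbours of each other and both members, so the choice of members fixes that they meet the rule, and no share is compared with the background. Of the 7 such probe sets beside the higher genes, none met it on the higher side and 1, of CG10550, met it on the lower side.

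The sad gene, whose product catalyses a late step of ecdysone synthesis in the ring gland, read 5504 and 6394 in lacZ, 5984 and 6762 in simj, 1400 and 1173 in vg, and 579 and 388 in vg_simj. CG6962 read 1115 and 1057 in lacZ, 995 and 1011 in simj, 706 and 749 in vg, and 710 and 718 in vg_simj. CG6962 thus differed less with vg, by -0.58 ± 0.12 and -0.49 ± 0.12 against -2.21 and -3.74 for sad, and did not share the further drop of sad beside simj. Whether transcripts of sad reach the CG6962 probes was not tested. Hml, a haemocyte gene for a large clotting protein, read 508 and 567 in lacZ, 800 and 1482 in simj, 130 and 80.0 in vg, and 234 and 188 in vg_simj, while its neighbour CG8745 stood lower in vg_simj than in vg in its mean. The amino acid transporter gene path read 3778 and 3002 in lacZ, 3205 and 2688 in simj, 1949 and 1942 in vg, and 1559 and 1311 in vg_simj. Its neighbour CG32037 read 278 and 194 in lacZ, 197 and 183 in simj, 118 and 78.8 in vg, and 97.8 and 90.7 in vg_simj.

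The neighbours CG13043 and CG13063 had a common pattern. CG13043 read 7117 and 5402 in lacZ, 7628 and 9152 in simj, 3955 and 2038 in vg, and 2476 and 2143 in vg_simj. CG13063 read 931 and 1320 in lacZ, 1352 and 1579 in simj, 695 and 587 in vg, and 450 and 355 in vg_simj. Both were higher in simj than in lacZ on every array, and both had a larger difference with vg beside simj, -1.86 for each, than without it, at -1.13 and -0.79. CG7296 read 5598 and 5053 in lacZ, 3303 and 3163 in simj, 2290 and 817 in vg, and 1722 and 1162 in vg_simj. It lay between its neighbours CG7299 and CG7294, in both of which arrays with and without vg overlapped. CG7299 read 2740 and 80.7 in the lacZ replicates.

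The effect of simj was not used to choose the members and was tested with limma over all 10205 probe sets, two-sided and with Benjamini-Hochberg adjustment. In simj against lacZ, where 0.147% of all probe sets were called higher and 0.265% lower, none of the 7 higher and none of the 42 lower genes passed the test. CG15236 and CG14852 were at background in both of these groups and passed the filter only through arrays with vg. The test could therefore show nothing about these genes. At an unadjusted p under 0.05, 0 of the 7 passed, and 4 of the 42 were higher and 0 lower, against 3.74% and 4.43% of all. These 4 were CG6908 (log2 difference 1.25 ± 0.40, limma adjusted p = 0.423), CG4250 (0.90 ± 0.32, adjusted p = 0.487), CG10337 (0.49 ± 0.20, adjusted p = 0.556) and CG14075 (1.71 ± 0.73, adjusted p = 0.600). CG14075 read 898 and 469 in lacZ, 2139 and 2129 in simj, 191 and 196 in vg, and 283 and 42.1 in vg_simj. Its simj arrays lay close together above both lacZ arrays, which lay apart from each other.

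Both simj arrays lay above both lacZ arrays in 12 of the 42 lower genes (28.6%, against 15.5% of all probe sets with a signal of at least 200) and below them in 5 (11.9%, against 25.0%). The median log2 difference of the 42 was 0.16 in simj against lacZ, beside -0.035 for all probe sets. The ring gland and haemocyte sums were also higher on both simj arrays than on both lacZ arrays, and their part in these differences was not tested. CG8157 shows how far 1 array can go, with 347 and 82.0 in lacZ, 256 and 3061 in simj, 41.2 and 1.3 in vg, and 33.6 and 3.7 in vg_simj. Of the haemocyte genes, Nplp2 and Sr-CI had the same order of arrays within every group. Nplp2 read 4390 and 2195 in lacZ, 3604 and 13712 in simj, 531 and 33.4 in vg, and 1396 and 276 in vg_simj. Most of the haemocyte list had another order. Hml, eater, srp, Col4a1, PPO1, PPO2, Pxn, He, crq and NimC1 were higher in lacZ replicate 2, and CG8157 in lacZ replicate 1. With 2 arrays per group a like order can arise by chance. The part of haemocyte RNA in the CG8157 signal was not tested.

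In vg_simj against vg, where 0.157% of all probe sets were called higher and 0.764% lower, 1 of the 42 lower genes passed. CG4716, CG3348 and CG8157 were at background in both of these groups, so the test could show little about them. CG4408, the carboxypeptidase gene, was lower with both transgenes than with vg alone, by -1.78 ± 0.27 (limma, adjusted p = 0.0261). Both vg_simj arrays, at 359 and 202, lay below both vg arrays, at 951 and 917. The call was lost without the intensity trend (adjusted p = 0.0879), with only the vg and vg_simj arrays in the fit (adjusted p = 0.0972), and without either vg array, either simj array or vg_simj replicate 2 (adjusted p from 0.0545 to 0.153). The estimate stayed between -1.37 and -1.81 in these fits. The ring gland sum was lower in vg_simj than in vg as well, and its part in the CG4408 difference was not tested.

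None of the 7 higher genes passed in vg_simj against vg, and 2 had an unadjusted p under 0.05, both with higher signals beside simj. For CG31436 the difference was 0.47 ± 0.19 (limma adjusted p = 0.491). For CG14852 it was 4.58 ± 1.49 (adjusted p = 0.313), or 7.33 ± 0.78 without vg replicate 1 (adjusted p = 0.0126), the vg array with the higher ng1, ng2 and ng3 signals. Of the 42 lower genes, 4 were higher and 4 lower at an unadjusted p under 0.05, against 4.21% and 5.37% of all probe sets. The lower ones besides CG4408 were CG15919 (-3.02 ± 0.79, adjusted p = 0.183), CG34296 (-1.94 ± 0.67, adjusted p = 0.357) and CG13063 (-0.67 ± 0.21, adjusted p = 0.284).

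CG15919 read 1913 and 3790 in lacZ, 2035 and 933 in simj, 432 and 258 in vg, and 98.7 and 14.1 in vg_simj. CG34296 read 1428 and 782 in lacZ, 1326 and 1378 in simj, 347 and 202 in vg, and 28.3 and 154 in vg_simj. In both, each vg_simj array was below each vg array, and the lowest vg_simj array was below its array's median. The genes higher beside simj were CG6310 (0.80 ± 0.18, adjusted p = 0.126), CG4829 (0.62 ± 0.20, adjusted p = 0.310), CG14298 (0.77 ± 0.29, adjusted p = 0.415) and CG17928 (0.73 ± 0.29, adjusted p = 0.470). CG6310 read 1739 and 1702 in lacZ, 1923 and 2305 in simj, 691 and 535 in vg, and 1189 and 948 in vg_simj, with no overlap between vg and vg_simj.

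Over all 42 lower genes, both vg_simj arrays lay above both vg arrays in 9 (21.4%, against 19.4% of all probe sets with a signal of at least 200) and below them in 7 (16.7%, against 16.9%). These shares were near the background. The 9 were CG17928, CG31145, CG14629, CG1092, CG3348, CG14298, CG4829, CG6310 and CG6908, and the 7 were CG4408, CG34296, CG15919, CG31777, CG32017, CG13101 and CG13063. From vg to vg_simj the ring gland sum was lower and the haemocyte sum higher on both arrays, and their part in these counts was not tested. Of the 7 higher genes, both vg_simj arrays lay above both vg arrays in 3, CG15236, CG14852 and CG31436, and below them in none. The vg signal itself was higher in vg_simj than in vg on each array, and its part in this was not tested.

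**Figure D4:**
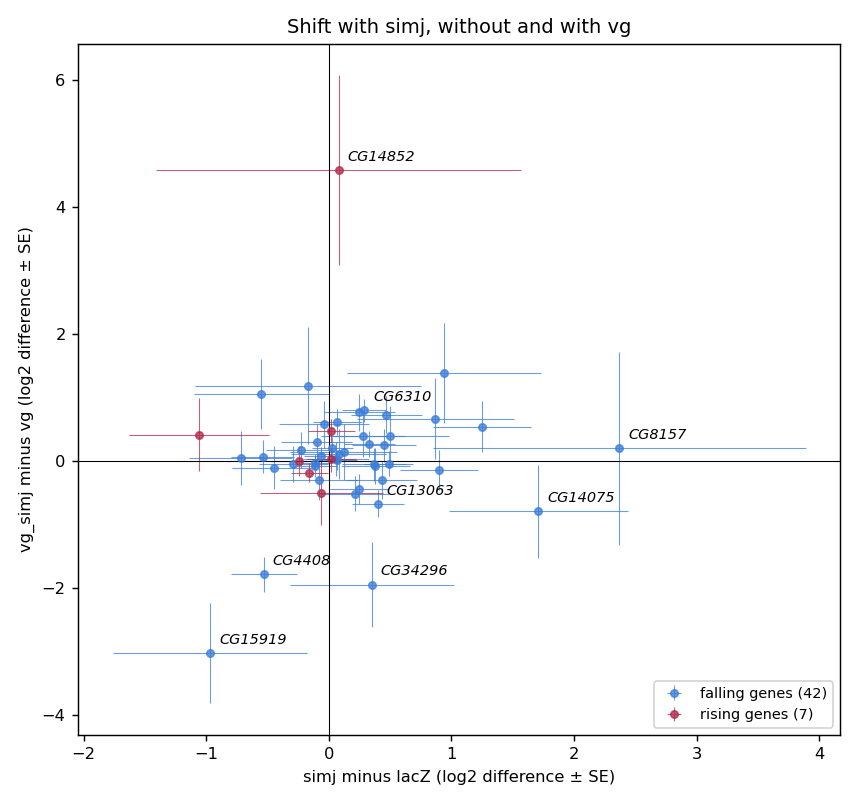
Log2 difference of simj against lacZ (horizontal) and of vg_simj against vg (vertical) for the 42 lower genes (blue) and the 7 higher genes (red), with SE bars. Most genes lie within 1 unit of 0 on both axes, CG4408 lies at -0.53 and -1.78, and CG14852 lies far up with an SE of 1.49.

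The interaction, which asks whether the difference with vg has another size beside simj than without it, called 1 probe set higher and 4 lower among all, or 0.0098% and 0.0392%. None of the 49 members passed (lowest limma adjusted p = 0.995). At an unadjusted p under 0.05, 0 of the 7 higher genes and 4 of the 42 lower genes passed, all 4 with a larger difference beside simj. Of all probe sets 2.05% had a positive and 1.91% a negative interaction at that p. These were CG13063 (-1.07 ± 0.30), CG4408 (-1.25 ± 0.38), CG34296 (-2.30 ± 0.95) and CG14075 (-2.51 ± 1.03). In 21 of the 42 the difference with vg was larger beside simj and in 21 it was smaller, and the median interaction was -0.01. Among the 7 higher genes it was larger beside simj in 5. These included CG6357, with an interaction of 0.01 ± 0.28, and CG15236 and CG14852, both at background without vg. No share over all probe sets was computed for these counts, and nothing is read from them.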

How the data were processed

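The authors deposited intensity values on a linear scale, and per the submitters' processing notes these are MAS5 signals; its version and a genome build are not given in the sources used here. Trimmed by 2% at either end, the mean signal was 500.0 on each of the 8 arrays. The 183 control probe sets among 18952 were left out. Through the platform annotation 13647 had 1 symbol and 402 had several. Symbols were updated by gene ID through the reference gene table, a RefSeq table whose release is not named in the sources used here. It held all 49 members and changed none of their symbols. Gene order and overlaps come from the same table.

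The members and lists were chosen with earlier results of these data known. The rule was applied to the deposited signals. The pseudocount of 2.8 in log2(signal + 2.8) is the 10th percentile of all signals. A probe set was kept where it exceeded its array's median on at least 2 arrays, which left 10205. In R 4.3.3, limma 3.58.1 fitted 1 mean per group to all 8 arrays, and its moderated variances followed the intensity. The fit had 4 residual degrees of freedom and 3.84 from the prior. P-values are two-sided and adjusted within a contrast, with calls under 0.05. With 2 arrays per group the number of arrays limits the precision, and p-values rest on a spread shared across groups. No label says that biologic replicates came from separate crosses, so their spread may be partly technical. The code was tested on simulated data for vg_simj against vg: of 200 changed among 10205 probe sets, 42.5% of log2 changes of 1 and 74.7% of changes of 2 were called, and 4.63% of calls were false.

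Named were vg and simj, the 12 widest gaps per direction, the 3 genes nearest each side of the ratio of 1.3, the 3 highest signals per direction, called members, members with more than 1 probe set and adjacent members; other members named were chosen after their values were seen. The alternatives were other ratios and signal floors, platform symbols, other pseudocounts, filters and scalings, no intensity trend, fits with the replicate number as a block or on the compared groups alone, and each array left out.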

Additional observations from a re-analysis of the deposited data

Results flagged for a closer look

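In 2 members the shift with simj ran one way on every array without vg and the other way on every array with vg. CG13063 was higher in simj than in lacZ but lower in vg_simj than in vg, and its interaction was -1.07 ± 0.30 (limma, unadjusted p = 0.00714, adjusted p = 0.995). CG15236 was lower in simj than in lacZ, at signals near background, and higher in vg_simj than in vg, with an interaction of 1.48 ± 0.81 (limma, unadjusted p = 0.105, adjusted p = 0.995). Neither passed the test of the difference.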

How the results depend on the processing

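The count of lower genes, 42, was 60 at a ratio of 1.2, 26 at 1.5, and 37 after quantile normalization, all 37 among the 42. The count of higher genes, 7, was 14 at a ratio of 1.2, 12 with a largest signal of at least 100, and 5 at a ratio of 1.5. With each array left out in turn the counts ranged from 43 to 119 for lower and from 6 to 13 for higher genes. Platform symbols changed neither. Fitted with the replicate number as a block, the calls were the same, 1 lower gene in vg_simj against vg and 0 in the other tested contrasts. The main fit did not pair samples by replicate number, since no label says that the numbers pair them. The deviations of replicate 1 arrays correlated at 0.059 to 0.402 between groups. All 6 correlations were positive, so arrays of the same number resembled each other to some degree. The call of CG4408 in vg_simj against vg became 0 calls without the intensity trend and 0 with only the groups compared. With arrays left out it ranged from 0 to 1 call, where a lone array is assumed to vary like the other groups. The count of higher genes called there ranged from 0 to 1 (CG14852). No sign changed in the recomputed values, which cover the vg differences of all members and, in the tested contrasts, only members with an unadjusted p under 0.05. Of the vg differences, 140 of the recomputed values moved by more than the replicate spread, 41 of them with a pseudocount of 64. Detection calls were not used here, so signal over background limits every value below the array median.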
